A study of Mus musculus with 5 samples.

Results

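The endoplasmic reticulum (ER) folds the proteins that a macrophage displays on its surface or secretes. Its chaperones hold unfinished chains, and a set of sensors in its membrane, the unfolded protein response, adjusts their supply when unfolded protein builds up. The 10 genes described here are those with the symbols Hspa5, Hsp90b1, Calr, Pdia4, Sdf2l1, Dnajb9, Herpud1, Atf6, Ern1 and Xbp1, taken by exact symbol from a table of 13339 genes. All 10 were listed, and all 10 passed the filter of a mean of at least 1 FPKM (fragment counts divided by transcript length and by the size of the library) over the 5 libraries, which 9795 genes passed in all.

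RNA sequencing was done on macrophages grown from bone marrow of C57BL/6 mice aged 8 weeks, after 5 days of culture with the growth factor M-CSF. One set of cells had no LPS (0 h), and the others had 100 ng/ml of LPS (lipopolysaccharide, from the outer membrane of bacteria, which binds the receptor Tlr4) for 4, 8, 12 or 24 h. All 5 libraries are titled WT2, there was 1 library per time, and the number of animals is not given in the sources used here. There were therefore no replicates, no test between times was possible, and every difference below compares a pair of libraries. The labels name no cells kept without LPS for 4 to 24 h, so the effect of LPS cannot be told apart from that of longer culture. Where 5 values of a gene are given below they are in the order 0, 4, 8, 12 and 24 h, and where 3 are given they are for 0, 4 and 24 h. One protocol field speaks of dendritic cells. All 8 macrophage markers examined were between 4.51 and 1896 FPKM in every library. The summed level of the 7 dendritic cell markers in the table was 51.3, 38.0, 35.5, 30.2 and 17.9 FPKM, of which Itgax held 44.0, 30.8, 18.3, 15.02 and 4.65, a gene that macrophages can also express. Of the other 6, Ccr7 went from 1.2 at 0 h to 14.8 at 8 h, Batf3 was at most at 4.14 and Siglech at 1.27, and the defining genes Flt3, Zbtb46 and Xcr1 were at most at 0.53, 0.25 and 0.64. The summed level of 6 neutrophil markers was 304, 282, 242, 176 and 58.5 FPKM. S100a8 (117, 108, 144, 125 and 46.6) and S100a9 (167, 159, 89.25, 44.3 and 7.14) held most of it. Ltf was at most at 11.45, Camp at 6.78 and Mpo at 4.79, while Ly6g went from 0.12 at 0 h to 3.71 at 24 h. Plasma cells, which are rich in ER chaperones, had 5 markers in the table, with sums of 40.1, 31.5, 37.5, 76.9 and 53.9 FPKM. The main parts of these sums were Sdc1 (29.1, 12.7, 29.9, 68.9 and 47.7) and Prdm1 (8.05, 17.1, 5.91, 6.35 and 5.59), while Jchain was at most at 2.04, Irf4 at 0.68 and Mzb1 at 0.24. Lymphoid, mast cell and stromal marker sums were at most 2.78, 4.99 and 11.6 FPKM. The part of other cells in the values below was not tested.

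In this pathway the sensors act first. Ern1 encodes IRE1, a kinase and ribonuclease that removes a short intron from Xbp1 messenger RNA, so that the transcription factor XBP1 is made in its active form. Atf6 encodes a membrane-bound factor that is cut free in the Golgi. Both factors bind to short sequences in the promoters of chaperone and degradation genes, the ER stress response elements.

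These elements were looked for in the promoters of the 10 genes, since both factors bind to them. Only exact matches to the letters given below were counted, and no other binding sequence was searched for. RefSeq promoters (GRCm38.p6) were found for 9 of the 10 genes, all but Atf6, and the 250 bases before the start were searched on both strands. The first element (ERSE) was taken as CCAAT and CCACG with 9 bases between them, and the second (ERSE-II) as ATTGG and CCACG with 1 base between them. The first was present in 3 of 9 promoters, those of Hspa5, Hsp90b1 (at 2 places) and Calr, and in 37 of all 32851 promoters of that length (0.113%). The second was present in that of Herpud1 and in 10 of all promoters (0.0304%). Of the genes past the filter with a promoter, 0.150% had the first and 0.0625% the second in at least 1 of their promoters. The 4 promoters are shown 5′ to 3′ up to the base before the start, with both ends of each element in capitals.
Hspa5 (chr2:34771840-34772089, plus strand): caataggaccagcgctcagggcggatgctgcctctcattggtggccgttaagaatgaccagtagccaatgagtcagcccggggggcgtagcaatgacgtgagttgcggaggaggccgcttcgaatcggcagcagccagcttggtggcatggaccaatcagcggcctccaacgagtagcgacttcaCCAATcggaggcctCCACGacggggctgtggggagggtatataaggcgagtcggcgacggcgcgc
Hsp90b1 (chr10:86705445-86705694, minus strand): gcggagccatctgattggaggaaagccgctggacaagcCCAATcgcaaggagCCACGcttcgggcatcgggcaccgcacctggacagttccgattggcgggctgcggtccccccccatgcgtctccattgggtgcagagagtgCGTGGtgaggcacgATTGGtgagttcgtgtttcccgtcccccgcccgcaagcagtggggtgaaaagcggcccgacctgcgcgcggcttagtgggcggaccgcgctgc
Calr (chr8:84846932-84847181, minus strand): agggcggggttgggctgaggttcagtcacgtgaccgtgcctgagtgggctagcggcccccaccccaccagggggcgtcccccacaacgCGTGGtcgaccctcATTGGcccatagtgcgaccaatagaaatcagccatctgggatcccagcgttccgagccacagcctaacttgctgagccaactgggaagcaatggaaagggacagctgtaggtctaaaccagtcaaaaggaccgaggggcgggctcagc
Herpud1 (chr8:94386179-94386428, plus strand): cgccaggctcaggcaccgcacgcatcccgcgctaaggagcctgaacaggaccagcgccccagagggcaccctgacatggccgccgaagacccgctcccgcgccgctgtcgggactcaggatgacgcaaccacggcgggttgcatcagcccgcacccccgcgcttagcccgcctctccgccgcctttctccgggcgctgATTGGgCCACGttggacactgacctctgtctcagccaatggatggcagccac
In the Hspa5 promoter the element lies 65 to 47 bases before the start, and in that of Herpud1 52 to 42 bases before it. That of Hsp90b1 carries one copy at 212 to 194 bases and another, on the opposite strand, at 107 to 89 bases. In the Calr promoter it lies on the opposite strand at 162 to 144 bases. The short end CCACG alone is part of both elements. It was present in 7 of the 9 promoters, with 3 copies in that of Sdf2l1, and in 28.3% of all promoters. Counted by gene, 47.1% of the 8001 genes past the filter with a promoter had it in at least 1 of their promoters. The promoters of Pdia4 and Xbp1 held none of the 3. A match describes the letters and is not a measured binding site. The elements are known from promoters of chaperone and degradation genes. Their higher share among these genes is therefore no test of enrichment and no result of these data.

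Hspa5 was the exception among the 7 chaperone, co-chaperone and degradation genes: it was higher at 4 h than at 0 h, while the other 6 were lower as deposited (Hsp90b1 and Calr were slightly above 0, at 0.12 and 0.11, with the trend by transcript length removed). Hspa5 (gene 14828; chromosome 2, 34772090 to 34776529, GRCm38) encodes BiP, the most general chaperone of the ER and the protein that keeps the sensors silent while it is bound to them. It had values of 307, 496, 401, 407 and 327 FPKM. The 0 h library was the lowest and the 4 h library the highest, and 24 h was back near 0 h. The difference on the log2(FPKM + 1) scale, on which all differences below are given, from the 0 h library was 0.69 for 4 h (a ratio of 1.62), and 0.38, 0.41 and 0.09 for the later times. At 4 h 84.5% of the 9795 genes had a smaller difference. In bulk RNA, fewer cells with a transcript and less of it per cell cannot be told apart.

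Hsp90b1 and Calr had FPKM values below 0 h at 4 h, though not on the length-corrected scale just given, and their lowest FPKM at 8 h, where the counting interval of Hsp90b1 (153 to 160 FPKM) overlapped that at 4 h (159 to 166). Hsp90b1 (gene 22027; chromosome 10, 86690841 to 86705444) encodes the ER form of the chaperone Hsp90, which Toll-like receptors and integrins need in order to fold. It had values of 251, 162, 157, 195 and 216 FPKM. No stimulated library reached the 0 h value, and the difference was -0.63 at 4 h and -0.22 at 24 h. Calr (gene 12317; chromosome 8, 84842088 to 84846931) encodes calreticulin, a calcium-binding lectin chaperone of glycoproteins. It had values of 518, 305, 232, 314 and 523 FPKM. The values trace a dip, with a difference of -1.16 at 8 h and of 0.02 at 24 h.

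Pdia4 and Sdf2l1 had larger dips, and they parted at 24 h. Pdia4 (gene 12304; chromosome 6, 47796141 to 47813512), a protein disulfide isomerase, had values of 29.5, 9.65, 6.99, 12.9 and 24.1 FPKM. Its differences at 4, 8 and 24 h were -1.52, -1.93 and -0.28. With the trend by transcript length removed they were -0.70, -1.35 and -0.07. With each library centred on its median gene the 4 h difference was -0.93. Sdf2l1 (gene 64136; chromosome 16, 17130138 to 17132383) encodes a luminal partner of Hspa5 and its J-domain proteins. It had values of 94.2, 18.9, 16.5, 21.5 and 32.6 FPKM. All 4 stimulated libraries were far below the 0 h library, with differences of -2.26, -2.45, -2.08 and -1.50 in order of time. Only 4.70% of genes had a lower value of this difference at 4 h, 3.27% at 8 h and 6.60% at 24 h. Its transcript of 1108 nt is among the shortest 10% of genes (371 to 1262 nt), whose median difference was -1.29 at 4 h and -0.77 at 24 h. With the trend by transcript length removed, Sdf2l1 was at -1.07, -1.49, -1.18 and -0.81 at the 4 times, so that the 24 h difference was no longer 2-fold.

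Dnajb9 and Herpud1 had similar differences from 0 h at 4 h (-1.21 and -1.37) and differences of opposite sign at 24 h. At 4 h they were at -0.63 and -0.79 with each library centred on its median gene. With the trend by transcript length removed they were at -0.40 and -0.43, so neither was 2-fold on those scales. Dnajb9 (gene 27362; chromosome 12, 44205897 to 44210068) encodes ERdj4, a J-domain co-chaperone that brings Hspa5 to IRE1 and holds the sensor silent. It had values of 17.0, 6.78, 8.25, 15.9 and 22.4 FPKM, with the highest value at 24 h. Herpud1 (gene 64209; chromosome 8, 94386429 to 94395371) encodes a membrane protein of the complex that passes misfolded proteins to the proteasome. It had values of 25.4, 9.21, 7.63, 10.8 and 6.56 FPKM, with the lowest value at 24 h. Their ratio, Dnajb9 over Herpud1, took the values 0.669, 0.736, 1.08, 1.47 and 3.42. At 24 h against 0 h, Dnajb9 differed by 0.38 and Herpud1 by -1.80, and 4.33% of genes lay below Herpud1. Herpud1 was the only one of the 10 genes with its lowest value at 24 h, although the counting intervals at 24 h (5.75 to 7.45 FPKM) and 8 h (6.76 to 8.58) overlapped.

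The sensors Atf6 and Ern1 took different courses. Atf6 (gene 226641; chromosome 1, 170704457 to 170868585) had values of 19.6, 13.5, 8.68, 8.23 and 17.0 FPKM. It was low at both 8 and 12 h, which were not separated by counting error (8.20 to 9.19 and 7.75 to 8.73 FPKM), with differences of -1.09 and -1.16, and of -0.20 at 24 h. Ern1 (gene 78943; chromosome 11, 106397620 to 106487796) had values of 1.76, 2.57, 2.76, 6.41 and 7.62 FPKM. It was the only gene of the 10 that was highest at 24 h and lowest at 0 h, and its differences were 0.37, 0.45, 1.42 and 1.64 in order of time. At 24 h the difference was smaller in 93.9% of genes, and the ratio of FPKM was 4.33. At the estimated depth, about 232 reads stood behind the 0 h value and 1000 behind the 24 h value, with 95% Poisson intervals of 1.54 to 2.0 and 7.15 to 8.11 FPKM that cover counting error only. The level of Atf6 over that of Ern1 took the values 11.1, 5.26, 3.14, 1.28 and 2.23. Both transcripts, at 7246 and 6946 nt, are among the longest 10% of genes, whose median difference at 24 h against 0 h was 0.35. With the length trend removed Ern1 was at 1.37 at 24 h. Atf6 was then at -0.88, -1.15 and -0.48 at 8, 12 and 24 h, so that its 8 h difference was no longer 2-fold.

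Xbp1 (gene 22433; chromosome 11, 5520641 to 5525993) had values of 72.0, 58.7, 47.6, 64.0 and 77.2 FPKM. The highest library, 24 h, was 1.62 times the lowest, 8 h. The value counts the gene as a whole, so the spliced form made by IRE1 and the unspliced form cannot be told apart. The profile of Xbp1 was closest to that of Hsp90b1 among the other 9 genes. The distance between their log2 values, each centred on its own mean, was 0.29 over the 5 libraries, the smallest among the 10 genes.

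**Figure D1:**
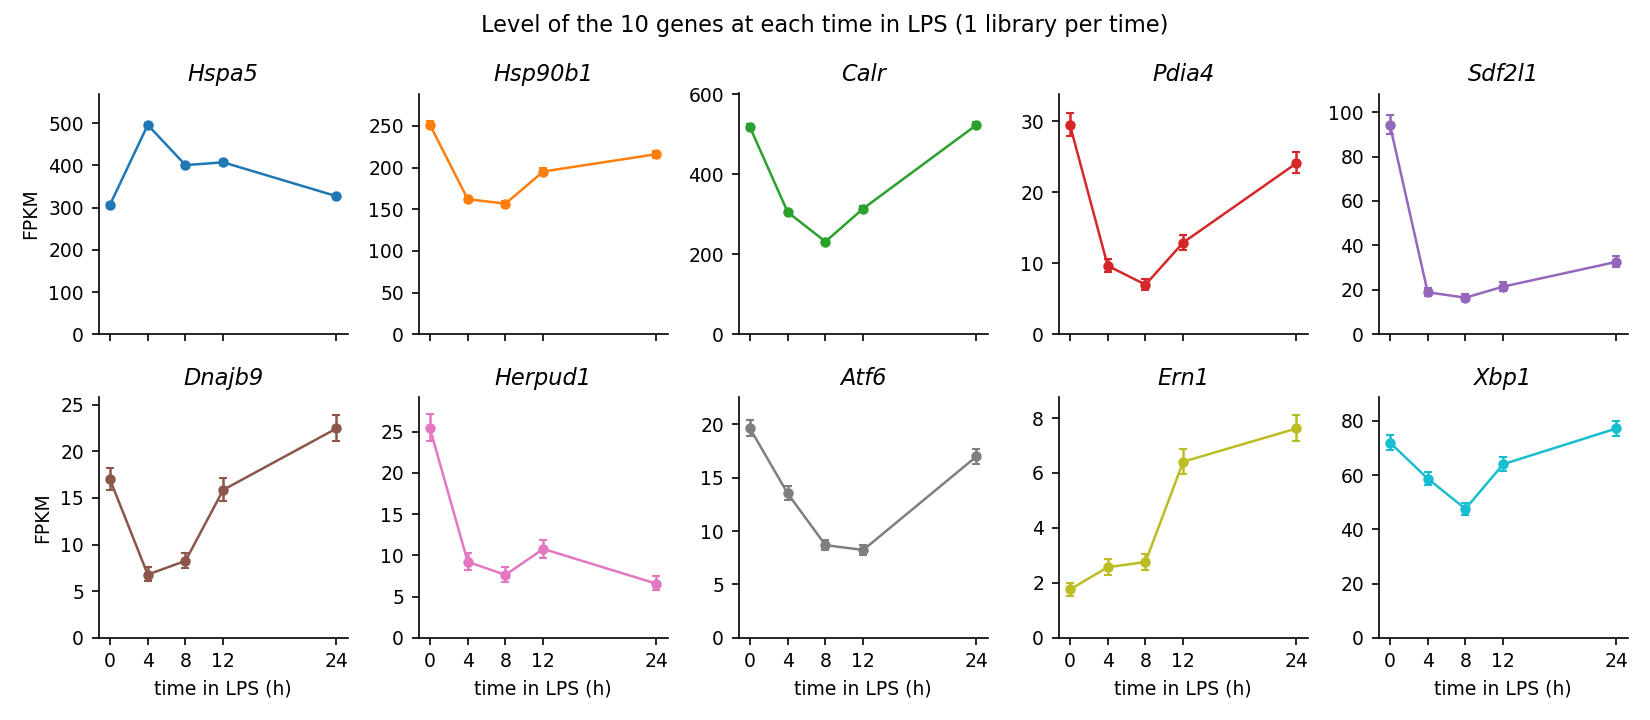
FPKM (vertical axes, from 0) of the 10 genes against time in LPS in hours, 1 point per library, with bars for the 95% Poisson counting interval at the estimated depth. Hspa5 peaks at 496 at 4 h, Ern1 goes from 1.76 to 7.62, Herpud1 ends at 6.56, and the others dip between 4 and 12 h.

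By level per transcript length, 3 chaperones dominated the group. Calr, Hspa5 and Hsp90b1 made up 80.6% of the summed FPKM of the 10 genes at 0 h, 89.0% at 4 h and 85.0% at 24 h. Calr was first and Hspa5 second at 0 h and 24 h, and the order was reversed at 4, 8 and 12 h. The share of Hspa5 was 23.0%, 45.8%, 45.2%, 38.6% and 26.1% in order of time. The sum itself came to 1335, 1082, 887, 1056 and 1254 FPKM. Below these 3, Sdf2l1 stood above Xbp1 at 0 h and below it in the 4 stimulated libraries. At 8 h the intervals of counting error of Atf6 (8.20 to 9.19 FPKM), Dnajb9 (7.44 to 9.12), Herpud1 (6.76 to 8.58) and Pdia4 (6.24 to 7.80) each overlapped the next, so neighbours in that order were not separated at this depth.

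A factor that scales a whole library cancels in a ratio of genes within it, but a trend by transcript length does not. Hspa5 over Calr took the values 0.592, 1.62, 1.73, 1.30 and 0.625. Hspa5 over its partner Sdf2l1 took the values 3.25, 26.2, 24.3, 19.0 and 10.03. Against Calr the 24 h library was near the 0 h ratio, whereas against Sdf2l1 it was not. Hspa5 over Dnajb9 was 18.1, 73.1 and 14.6, and Hspa5 over Pdia4 was 10.4, 51.4 and 13.6. Hspa5 over Hsp90b1 was 1.22, 3.06 and 1.51. On the log2(FPKM + 1) scale the ratio to Sdf2l1 was 2.95 above 0 h at 4 h and 1.60 above it at 24 h, and 2.34 and 0.94 above it with the length trend removed. The ratio to Calr was 1.45 and 0.08 above 0 h at these times, and 1.16 above and then -0.15 with the length trend removed.

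**Figure D2:**
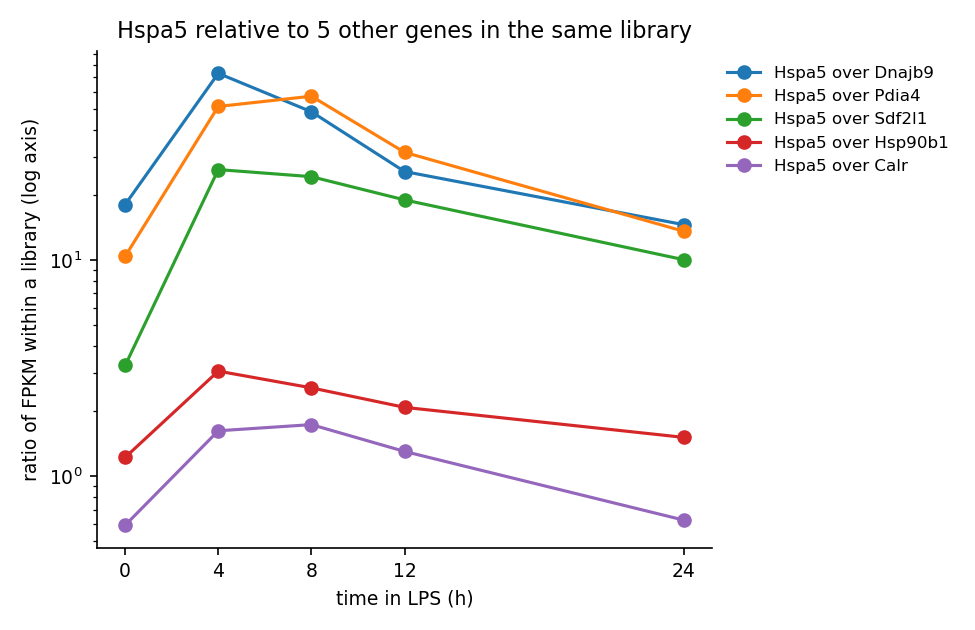
Ratio of the FPKM of Hspa5 to that of Dnajb9, Pdia4, Sdf2l1, Hsp90b1 and Calr (vertical axis, log scale) against time in LPS in hours, 1 point per library. All 5 ratios are higher at 4, 8 and 12 h than at 0 h, and that to Sdf2l1 goes from 3.25 at 0 h to 26.2 at 4 h and 10.03 at 24 h.

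The number of the 10 genes that were at least 2-fold apart is given beside the share of all genes that were. At 4 h against 0 h, 0 were higher (12.2% of all 9795 genes) and 4 lower (38.1% of all), namely Pdia4, Sdf2l1, Dnajb9 and Herpud1. At 8 h 0 were higher (12.0% of all) and 5 lower (28.9%): Calr, Pdia4, Sdf2l1, Herpud1 and Atf6. At 12 h 1 gene, Ern1, was higher (12.3%) and 4 were lower (21.5%): Pdia4, Sdf2l1, Herpud1 and Atf6. At 24 h Ern1 was higher (11.3%), and Sdf2l1 and Herpud1 were lower (14.5%). The medians of the 10 genes were -0.69, -1.02, -0.54 and -0.09, where the median of all genes was -0.70, -0.49, -0.35 and -0.11. These comparisons share the 0 h library.

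Between stimulated libraries, 24 h against 4 h had 3 genes at least 2-fold higher (25.0% of all), namely Dnajb9 at 1.59, Ern1 at 1.27 and Pdia4 at 1.24, and 0 lower (8.19%). With centred libraries these 3 were at 1.06, 0.74 and 0.70, and Hspa5 was at -1.13 in place of -0.60. On the log2(FPKM + 1) scale none of the 10 genes was 2-fold apart between neighbouring stimulated libraries. The ratio of FPKM itself was 2.32 for Ern1 from 8 to 12 h and 2.06 for Atf6 from 12 to 24 h. The shares of all genes were 5.23% higher and 3.88% lower from 4 to 8 h, 2.58% and 0.939% from 8 to 12 h, and 3.42% and 3.50% from 12 to 24 h. The largest steps of the 10 genes were those of Ern1 from 8 to 12 h (0.98) and of Atf6 from 12 to 24 h (0.96), where 97.3% and 96.2% of genes had smaller differences. From 8 to 12 h 9 of the 10 genes were at a higher level, all but Atf6 (-0.07). The median of the 10 was 0.43 beside 0.12 for all genes, so genes in general also tended to be higher. The share of all genes with any higher level is not given here. Hspa5, at 0.02, and Atf6 were not separated from 0 by counting error (half-widths of 0.02 and 0.12). Once each library was centred on its median gene, Hspa5 was at -0.14. The medians were then 0.27 for the 10 genes and -0.04 for all genes.

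The scaling of the libraries moved these values. Centring each library on its median gene moved the median difference of all genes at 4 h from -0.70 to -0.11, and the share of higher genes among those 2-fold apart from 24.3% to 54.4%. It added 0.58 to the log2 difference of Hspa5 at 4 h, which became 1.27. On that scale 1 gene was at least 2-fold higher at 4 h (Hspa5) and 1 lower (Sdf2l1 at -1.68), and 3 were lower at 8 h: Pdia4, Sdf2l1 and Herpud1. Hsp90b1 and Calr were then at -0.05 and -0.18 at 4 h, and above 0 at 0.12 and 0.11 with the length trend removed. Atf6 and Xbp1 at 4 h, at -0.51 and -0.29 as deposited, were at 0.08 and 0.29 once centred. With the length trend removed they were on opposite sides of 0, at -0.38 and 0.60. At 12 h centring moved Dnajb9 and Xbp1 from -0.09 and -0.17 to 0.21 and 0.14. The 24 h differences were little affected by centring: Herpud1 was at -1.76, Sdf2l1 at -1.46 and Ern1 at 1.69.

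**Figure D3:**
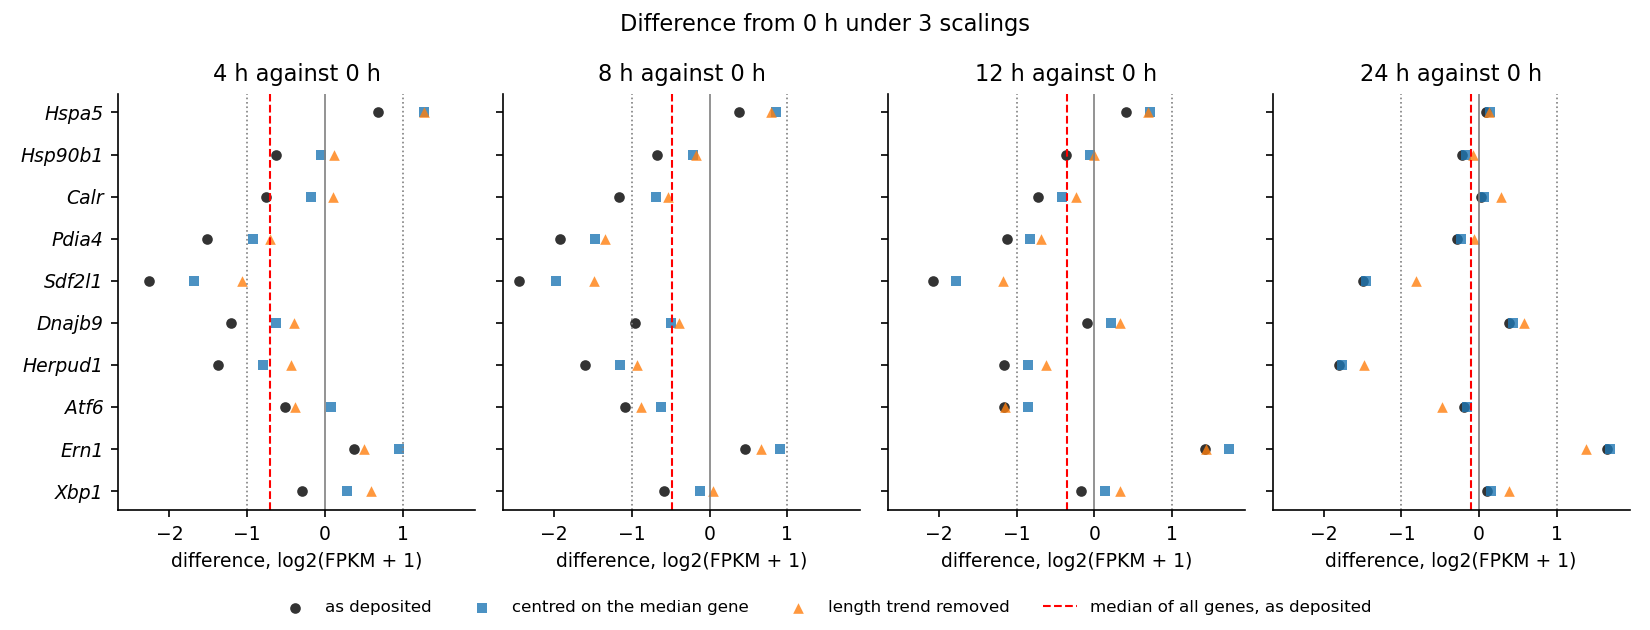
Difference of log2(FPKM + 1) from 0 h (horizontal axes) for the 10 genes at 4, 8, 12 and 24 h, as deposited (circles), with libraries centred on the median gene (squares) and with the length trend removed (triangles); dotted lines mark 2-fold and the dashed line the median of all genes. Hspa5 lies right of 0 in all 4 panels, Sdf2l1 and Herpud1 lie left of it, and the squares at 4 h lie right of the circles.

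Other ER folding genes were set beside the 10. The shares of all genes to read these counts against are 12.2% higher and 38.1% lower at 4 h, and 11.3% and 14.5% at 24 h. With centred libraries 1903 of 9795 genes were higher and 1598 lower at 4 h, and with the length trend removed 1925 and 1158 of 9746. Of 19 further ER chaperones and co-chaperones, 0 were at least 2-fold higher and 9 lower at 4 h than at 0 h, and 1 was higher and 2 lower at 24 h, with medians of -0.90 and -0.04. At 4 h 3 were lower once centred and 1 with the length trend removed, and at 24 h 2 and 0. Cnpy3, a helper of Hsp90b1 in folding Toll-like receptors, had 49.9, 8.71 and 45.5 FPKM. The prolyl isomerase gene Fkbp2 was at 108, 34.0 and 46.0, and Cnpy2 at 48.1, 14.9 and 18.6. Dnajc1, a J-domain protein of the ER membrane, was at 6.92, 5.98 and 22.4, and Hspa13 at 8.33, 8.12 and 13.1.

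Of 14 disulfide isomerases and oxidases past the filter, 0 were higher and 7 lower at 4 h (median -0.94), and 1 was higher and 2 lower at 24 h (median -0.17). The 7 became 3 once centred and 2 with the length trend removed. The one higher gene was Ero1l, the oxidase that recharges protein disulfide isomerases, at 8.99, 11.7 and 76.2 FPKM. Qsox1, another oxidase, was at 9.17, 6.40 and 17.6. Erp29 (209, 26.9 and 94.7) and Txndc11 (20.7, 4.65 and 8.68) had the most negative differences from 0 h of the list at both times. Tmx3 stood at 18.1, 19.1 and 17.3.

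Herpud1 acts in ER-associated degradation. Of 20 other genes of that route, 0 were higher and 5 lower at 4 h (median -0.44), and 0 were 2-fold apart at 24 h (median -0.07). At 4 h 0 were lower once centred (median 0.15) and 0 with the length trend removed. Syvn1, the ubiquitin ligase of that complex, had 21.4, 28.5 and 31.1 FPKM, and its partner Sel1l had 29.2, 38.7 and 27.2. Edem2 was at 45.0, 17.7 and 39.5, Edem1 at 50.8, 45.8 and 39.4, and the ligase gene Rnf5 at 42.1, 14.0 and 27.3. Nploc4, a cofactor of the extracting ATPase Vcp, was at 15.5, 17.5 and 30.0, and Faf2 at 11.6, 9.38 and 18.4. Herpud1, at 25.4, 9.21 and 6.56, was thus below 0 h at 24 h by more than any of these 20 genes, the lowest of which was Rnf5 at -0.61.

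Of 21 genes of translocation, signal peptide removal and N-glycosylation, 1 was higher and 9 lower at 4 h (median -0.95), and 1 higher and 3 lower at 24 h (median -0.52). The higher gene was Serp1, a small protein of the translocation channel, at 141, 287 and 318 FPKM. Ssr3, a translocon-associated subunit, stood at 84.3, 165 and 88.9. Sec61b, a subunit of the channel itself, was at 75.7, 29.8 and 29.2, Ssr4 at 125, 54.1 and 49.4, and Sec11c at 93.4, 30.3 and 52.9. Once centred, 2 genes were higher and 1 lower at 4 h, and with the length trend removed 0 genes of this list were lower at either time.

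Among 10 other sensors, proteases and factors past the filter, 1 was higher and 1 lower at 4 h, and 2 were higher and 0 lower at 24 h. Eif2ak3, which encodes the sensor PERK, had values of 5.01, 0.64, 1.08, 2.66 and 3.80 FPKM. Traf2, an adaptor that IRE1 recruits, was at 6.96, 26.2 and 33.1, and the factor gene Atf4 at 72.4, 69.4 and 257. Atf6b, the relative of Atf6, was at 40.7, 22.3 and 39.7, and the protease gene Mbtps2, whose product frees Atf6 from the membrane, at 9.97, 6.83 and 6.90. Tmbim6 stood at 379, 423 and 356, and Wfs1 at 4.68, 2.21 and 2.65.

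For the PERK-ATF4 arm, 4 of 13 genes were higher and 5 lower at 4 h, and 9 higher and 0 lower at 24 h, where the median was 1.25. Eif2ak3 and Atf4 are counted both here and among the other sensors and factors above. The 5 lower genes at 4 h became 2 once centred and 1 with the length trend removed, and the 9 higher at 24 h stayed 9 in number under both. Nupr1 (9.46, 217 and 108 FPKM) had the largest positive difference at both times, and Ddit3, which encodes CHOP, stood at 24.1, 4.73 and 52.6. Of 14 cytosolic and mitochondrial chaperones, 2 were higher and 4 lower at 4 h (3 and 1 once centred) and 2 higher and 1 lower at 24 h. Hspa1a (0.94, 2.85 and 43.1) had the largest positive difference at 24 h, although it shares reads with its near copy Hspa1b, and Hspe1 (114, 25.9 and 28.0) the largest negative one.

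**Figure D4:**
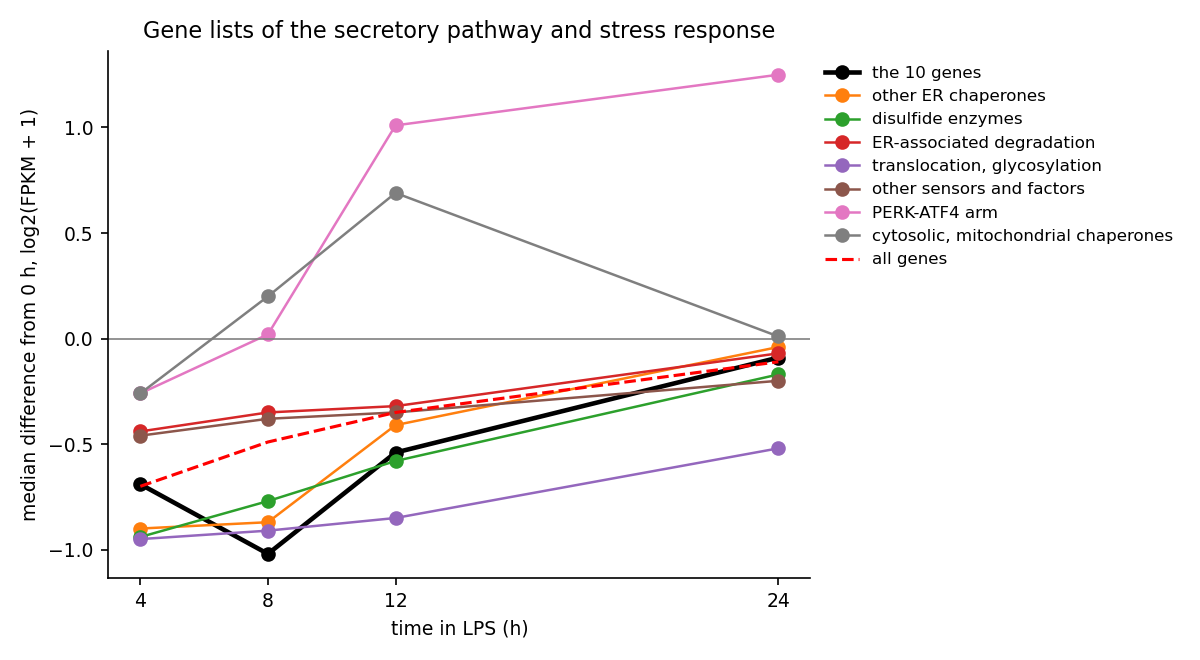
Median difference of log2(FPKM + 1) from 0 h (vertical axis) of the 10 genes, 7 further lists and all 9795 genes against time in LPS in hours. The 10 genes reach -1.02 at 8 h and -0.09 at 24 h, while the PERK-ATF4 arm reaches 1.25 at 24 h. Eif2ak3 and Atf4 are in both the PERK-ATF4 arm and the list of other sensors and factors.

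Beyond the 4 members, 13 genes past the filter had one of the 2 response elements in their promoter, and 6 of them were in the ER lists above (Canx, Creld2, Dnajc3, Ero1lb, Pdia6 and Syvn1). Of the 13, 1 was at least 2-fold higher and 4 lower at 4 h (median -0.61), beside 12.2% and 38.1% of all genes, and 1 was higher and 0 lower at 24 h (median -0.21). Once centred, 1 was higher and 0 lower at 4 h (median -0.03). Among the 4 members with an element, Hspa5 differed by 0.69 at 4 h as deposited. Hsp90b1 was at -0.63, Calr at -0.76 and Herpud1, which has the second element, at -1.37. Once centred the 4 were at 1.27, -0.05, -0.18 and -0.79, and with the length trend removed at 1.27, 0.12, 0.11 and -0.43. Hspa5 was thus above 0 and Herpud1 below it on each of these scales, while the sign for Hsp90b1 and Calr depended on the scaling.

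Genes with the profile most like that of Hspa5 were Tcof1 (14.0, 23.2 and 14.4 FPKM; distance 0.11), Ccnl1 (0.19), Arf3 (0.19), Kars (0.21) and Sf3b1 (0.22). For Sdf2l1 they were Dusp3 (81.8, 14.9 and 28.2 FPKM; distance 0.14), Lamtor4 (0.20), Aes (0.23), Nceh1 (0.25) and Slc17a5 (0.25). The distance is Euclidean over 5 libraries between log2(FPKM + 1) values centred on each gene's mean, among 4907 genes with a mean of at least 10 FPKM. None of these 10 genes was in the ER lists above.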

How the data were processed

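RNA from 5 mouse macrophage cultures (1 library per time: 0, 4, 8, 12 and 24 h of LPS) was sequenced, and the authors deposited 1 table of FPKM values with 2 decimals, per the file headers. The submitters' processing notes name Bowtie2, RSEM and GRCm38. Their roles, the annotation and any filter on genes are not stated in the labels. FPKM are shares of a library, so a value depends on the other genes.

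Members were matched by symbol, and the members and gene lists were chosen with earlier results of these data known. Differences were taken on log2(FPKM + 1), which understates the change of low genes, over 9795 genes with a mean of at least 1 FPKM. With 1 library per time no test was run, and a gene was counted from a 2-fold difference. Pathway genes were named by rule: the 2 largest differences in each direction at 4 h and at 24 h against 0 h per list (for the last 2 lists, examples among these), and the 5 nearest profiles. Marker genes and genes with a response element were named outside that rule.

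Depth was estimated from the steps between low values of genes with 1 transcript of 400 to 2500 nt (length reduced by 40 nt): 18.8 to 19.2 M reads (megareads) per library. At these steps 44.8% to 62.7% of 67 to 76 values came out whole (tolerance 0.04 reads or the rounding error, if larger), where 19.6% to 21.4% would be at a fixed step. The step was chosen for the best match, so the depth is an estimate, and many values gave no whole reads. Transcript length was the longest protein-coding transcript in GENCODE M21, known for 99.5% of these genes. The length trend was a lowess fit. Python 3.11.15, pandas 2.3.3, scipy 1.17.1 and statsmodels 0.14.6 were used, and the difference, filter and trend steps were tested on simulated data. Alternatives were 2 pseudocounts, 3 scalings, 2 filters and a 1.5-fold threshold.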

Additional observations from a re-analysis of the deposited data

How the results depend on the processing

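Counts of the 10 genes at least 2-fold apart depended on scaling. With libraries centred on their median gene, 1 was higher and 1 lower at 4 h against 0 h (0 and 4 as deposited), 3 were lower at 8 h (5), 1 was lower at 12 h (4), and 1 was higher and 1 lower at 24 h against 4 h (3 and 0). With the length trend removed the counts were 1 higher and 1 lower at 4 h, 2 lower at 8 h, 2 lower at 12 h, 1 lower at 24 h against 0 h (2), and 1 higher and 1 lower at 24 h against 4 h. Upper-quartile scaling left 3 lower at 8 h. A pseudocount of 5 gave 0 higher and 1 lower at 12 h, 0 higher at 24 h against 0 h and 1 higher at 24 h against 4 h, and a pseudocount of 0.1 gave 1 higher from 8 to 12 h and 1 higher from 12 to 24 h. A mean of at least 5 FPKM removed Ern1, leaving 0 higher at 12 h and 24 h. At 1.5-fold 1 was higher at 4 h, 8 were lower at 8 h, 5 were higher and 1 lower at 24 h against 4 h, 3 were higher from 8 to 12 h, and 3 were higher and 1 lower from 12 to 24 h. The cause was not tested. Of all 80 differences of the 10 genes, 11 changed sign when centred, 13 with the length trend removed, 2 with upper-quartile scaling and 0 with either pseudocount; these included 0 of the 20 that were at least 2-fold.

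The share of higher genes among all genes 2-fold apart at 4, 8, 12 and 24 h against 0 h was 24.3%, 29.4%, 36.4% and 43.7%, and 54.4%, 53.3%, 53.3% and 46.8% once centred. With the length trend removed it was 62.4%, 58.9%, 62.3% and 55.9%. For 24 h against 4 h it was 75.3%, and 35.8% once centred. From 4 to 8 h, 8 to 12 h and 12 to 24 h it was 57.4%, 73.3% and 49.4%, and 42.9%, 47.6% and 18.6% once centred. No paired analysis was possible because each time has 1 library. The estimated depth limits Ern1 (about 232 reads at 0 h) and Herpud1 (about 238 at 24 h) in particular.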
